A study of Mus musculus with 8 samples.

Results

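The BCL2 family genes measured here are 10 transcripts whose proteins hold back or carry out the mitochondrial route of cell death. They were chosen by symbol: *Bcl2*, *Bcl2l1*, *Mcl1* and *Bcl2a1b* on the anti-apoptotic side, and *Bax*, *Bak1*, *Bcl2l11*, *Bbc3*, *Pmaip1* and *Bad* on the pro-apoptotic side. All 10 were found among the 48321 gene symbols listed, and all 10 were among the 12595 genes that passed the filter on low counts and were tested. RNA was sequenced from natural killer (NK) cells freshly sorted as CD45+ TCRβ- NK1.1+ from lung and spleen of C57/Bl6 mice, with 2 libraries for each of 4 groups. The groups were lung *Wt*, lung KO, spleen *Wt* and spleen KO, where KO stands for the homozygous *Ccl5* ΔPE/ΔPE genotype. In these mice the proximal enhancer of *Ccl5* had been removed from the germline by cutting with a pair of guide RNAs, so every cell of the animal carries the deletion. Each mouse line was kept as a colony of its own, so genotype and colony cannot be told apart, and the methods give 1 age range for mice of mixed sexes, with no age for a library. No treatment was given. Whether both libraries of a group stem from different animals is not in the labels. Thus n counts libraries, and p-values measure the spread between these libraries, which may be technical.

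Apoptosis through mitochondria is decided by protein contacts within this family. BCL2, BCL-XL (the product of *Bcl2l1*), MCL1 and A1 hold the effectors BAX and BAK1 in check, whereas BH3-only proteins such as BIM, PUMA, NOXA and BAD free or activate the effectors, which then open the outer mitochondrial membrane and release cytochrome *c*. NK cells depend on IL-15, whose receptor signals through JAK kinases and STAT5, to keep BCL2 and MCL1 levels high enough for survival.

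The libraries held between 3132963 (spleen KO replicate 1) and 26482366 (spleen KO replicate 2) reads on genes. Levels are given as CPM, the counts per mega-read of a library, on library sizes scaled by TMM. A floor of 3 reads per library was worth between 0.115 and 0.979 CPM, a limit that covers counting error only. The common biological coefficient of variation between libraries of a group was 2.5%, so small differences passed the test for many genes.

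*Ccl5* itself served as the check of the genotype labels. In lung, it was counted at 19500 and 18300 CPM in *Wt* and at 2990 and 3200 CPM in KO. In spleen, the *Wt* libraries had 16700 and 15700 CPM and the KO libraries 2680 and 2430 CPM. Every KO library was far below every *Wt* library, as its label requires. The log2 fold change was -2.61 (standard error 0.04) in lung and -2.67 (standard error 0.04) in spleen, with adjusted p = 2.3e-35 and 1.4e-35 (quasi-likelihood test of edgeR, Benjamini-Hochberg adjustment).

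All 11 NK cell markers listed had reads, and their summed level lay between 38600 and 55800 CPM, led by *Gzma*. This sum was itself not constant across groups: it was 55800 and 54300 CPM in lung *Wt*, 43600 and 43900 CPM in lung KO, 39200 and 38600 CPM in spleen *Wt*, and 52200 and 49900 CPM in spleen KO. It follows *Gzma* and *Nkg7*, while *Tbx21* and *Prf1* went the opposite way: *Tbx21* from 216 and 221 to 478 and 480 CPM in lung KO and from 341 and 331 to 150 and 147 CPM in spleen KO, and *Prf1* from 1460 and 1560 to 2480 and 2550 CPM and from 1300 and 1320 to 939 and 938 CPM. T cell markers (11 of 11 with a read, led by *Trbc1*) summed to between 326 and 634 CPM, lowest in lung KO and highest in spleen KO, where *Cd3e* nevertheless fell from 32 and 32.5 to 7.51 and 11.1 CPM. B cell and plasma cell markers (9 of 9, led by *Ighm*) summed to between 273 and 748 CPM, with the same order, although *Igkc* rose in lung KO from 2.36 and 2.33 to 13.5 and 15.4 CPM. Monocyte and macrophage markers (10 of 12 with a read, *Adgre1* and *Fcgr1* at 0, led by *Cd68* over all libraries) came to at most 42.4 CPM. In lung, from *Wt* to KO, *Lyz2* rose from 12.2 and 15.8 to 23.5 and 25.2 CPM, and *Cd68* fell from 15.7 and 14.2 to 8.39 and 11.2 CPM and *Mrc1* from 2.24 and 2.85 to 0.205 and 0.272 CPM. Neutrophil markers (2 of 12 with a read, led by *Ly6g*, with *S100a8* and *S100a9* at 0) came to at most 4.72 CPM. Dendritic cell markers (5 of 6, *Flt3* at 0, led by *Zbtb46*) reached 12.1 CPM. Basophil and mast cell markers (2 of 6, *Ms4a2*, *Fcer1a*, *Mcpt4* and *Prss34* at 0, led by *Cpa3*) reached 4.71 CPM.

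Lung epithelial markers (8 of 8, led by the surfactant gene *Sftpc*) summed to 256 and 253 CPM in lung *Wt* and to 364 and 400 CPM in lung KO, against at most 2.41 CPM in any spleen library. *Sftpc* had between 152 and 282 CPM in lung and no read in spleen. In lung KO *Sftpa1* rose from 13.2 and 12.2 to 44.6 and 48.3 CPM, and *Scgb1a1* fell from 87.3 and 83.4 to 60.4 and 63.9 CPM. Endothelial and stromal markers (10 of 10, led by *Pecam1*) summed to 87.6 and 78.2 CPM in lung *Wt* and 106 and 111 CPM in lung KO, and to between 65.4 and 75.2 CPM in spleen. In spleen this was almost all *Pecam1* (between 64.9 and 74.9 CPM), with *Cdh5*, *Kdr*, *Cldn5*, *Vwf* and *Col3a1* at 0. In lung KO *Pecam1* was higher (78.2 and 80.2 against 57.5 and 60.7 CPM) and *Col3a1* lower (2.72 and 2.87 against 3.89 and 4.48 CPM) than in *Wt*. Erythroid and platelet markers (9 of 10, *Gp9* at 0, led by *Hbb-bs*) lay between 55.4 and 60.3 CPM in lung and at most 2.99 CPM in spleen. Their even sum in lung hid opposite moves: from *Wt* to KO, *Hbb-bs* went from 13.2 and 16.6 to 28.7 and 31.7 CPM, and the platelet genes *Ppbp* from 21.1 and 20.2 to 4.71 and 6.12 CPM and *Pf4* from 8.58 and 8.29 to 1.23 and 0.544 CPM. Markers of ILC1 and other innate lymphoid cells (led by *Gata3*) lay between 464 and 482 CPM in all groups except spleen *Wt*, which had 564 and 571 CPM. This sum rests on *Gata3*, which went from 361 and 363 to 402 and 419 CPM in lung KO and from 407 and 401 to 329 and 326 CPM in spleen KO. *Itga1* rose in lung KO (7.83 and 8.55 to 11.9 and 9.12 CPM) and fell in spleen KO (9.24 and 8.53 to 2.29 and 3.83 CPM), and *Il7r* fell in spleen KO from 90.2 and 94.9 to 70.2 and 71.5 CPM. In lung KO *Il7r* fell from 44.3 and 44.8 to 16.2 and 17.7 CPM, *Cxcr6* from 33.7 and 30.6 to 19 and 18.8 CPM, and *Cd200r1* from 10.3 and 10.6 to 3.27 and 3.67 CPM. The part of these other cells in the results below was not tested. In such bulk samples, fewer cells of a type and less RNA per cell cannot be told apart.

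Removal of the enhancer went with opposite shifts in the 2 organs for several members (adjusted p under 0.05 from edgeR's quasi-likelihood test throughout). How many of all genes tested shifted in opposite directions was not counted. Opposite signs also occurred outside the family, in *Tbx21* and *Prf1* above and in most named genes of the lists below. They are thus not particular to these members. In lung NK cells, 6 of the 10 members were higher in KO (*Bcl2*, *Bcl2l1*, *Bak1*, *Bcl2l11*, *Bbc3* and *Pmaip1*) and 2 were lower (*Mcl1* and *Bcl2a1b*). Over all genes tested in lung, 55.6% were called, 29.2% as higher and 26.4% as lower. In spleen NK cells, 1 member was higher in KO (*Mcl1*) and 3 were lower (*Bcl2l1*, *Bak1* and *Bbc3*), where 57.1% of all genes were called, 28.2% as higher and 28.9% as lower. The KO effect differed between the organs for 8 members, 6 of them with the more positive effect in lung and 2 with the more negative. The same difference was called for 61.6% of all genes, 32.5% in the positive and 29% in the negative direction. The share of members called in spleen was below that of all genes, and the shares in lung and for the difference were above it in a list of 10. The members' median log2 fold change was 0.32 in lung, against 0.02 over all genes tested, and -0.07 in spleen, against 0. For the difference, these medians were 0.44 and 0.03. The 6 pro-apoptotic members had a median of 0.37 in lung and -0.08 in spleen, and the 4 anti-apoptotic members -0.14 and 0.

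These calls rest on the narrow spread between libraries of a group. When a biological coefficient of variation of 0.2 was assumed for every gene, 1 member was called in lung (*Bcl2a1b*), with 12.4% of all genes, and 3 in spleen (*Bcl2l1*, *Bak1* and *Bbc3*), with 9.08% of all genes. For the difference between the organs, the same assumption gave *Bcl2l1*, *Bak1* and *Bbc3*, 3 members, with 16% of all genes. An exact permutation test of 2 libraries against 2 cannot give a two-sided p below 0.333.

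Changes also ran along the base composition of the transcripts. Across the 12505 tested genes with known GC content, which are not independent replicates, the log2 fold change in KO had a Spearman correlation with exonic GC content of 0.295 in lung and -0.278 in spleen. Removing each library's own trend with GC content (the GC offset) turned the calls in lung into 4 higher and 4 lower members, with a median of 0.01, and in spleen into 3 higher and 5 lower. Over all genes the same offset called 6828 in lung, 43.6% of them higher (median -0.059), and 6984 in spleen, 52.8% of them higher (median 0.012). The pro-apoptotic members in lung went from 4 higher and 0 lower to 2 higher and 2 lower, and their median from 0.37 to 0.01. Values under this offset are given below where a call or the size of an effect changed most. Scaling by library totals instead of TMM moved the median of all genes to 0.113 in lung and to 0.194 for the difference. The share of higher genes among those called then went from 52.5% to 63.3% in lung, from 49.3% to 41.2% in spleen and from 52.9% to 63.5% for the difference. No called direction of a member turned between TMM and the other scalings (RLE, upper-quartile and library totals) in either KO comparison.

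**Figure D1:**
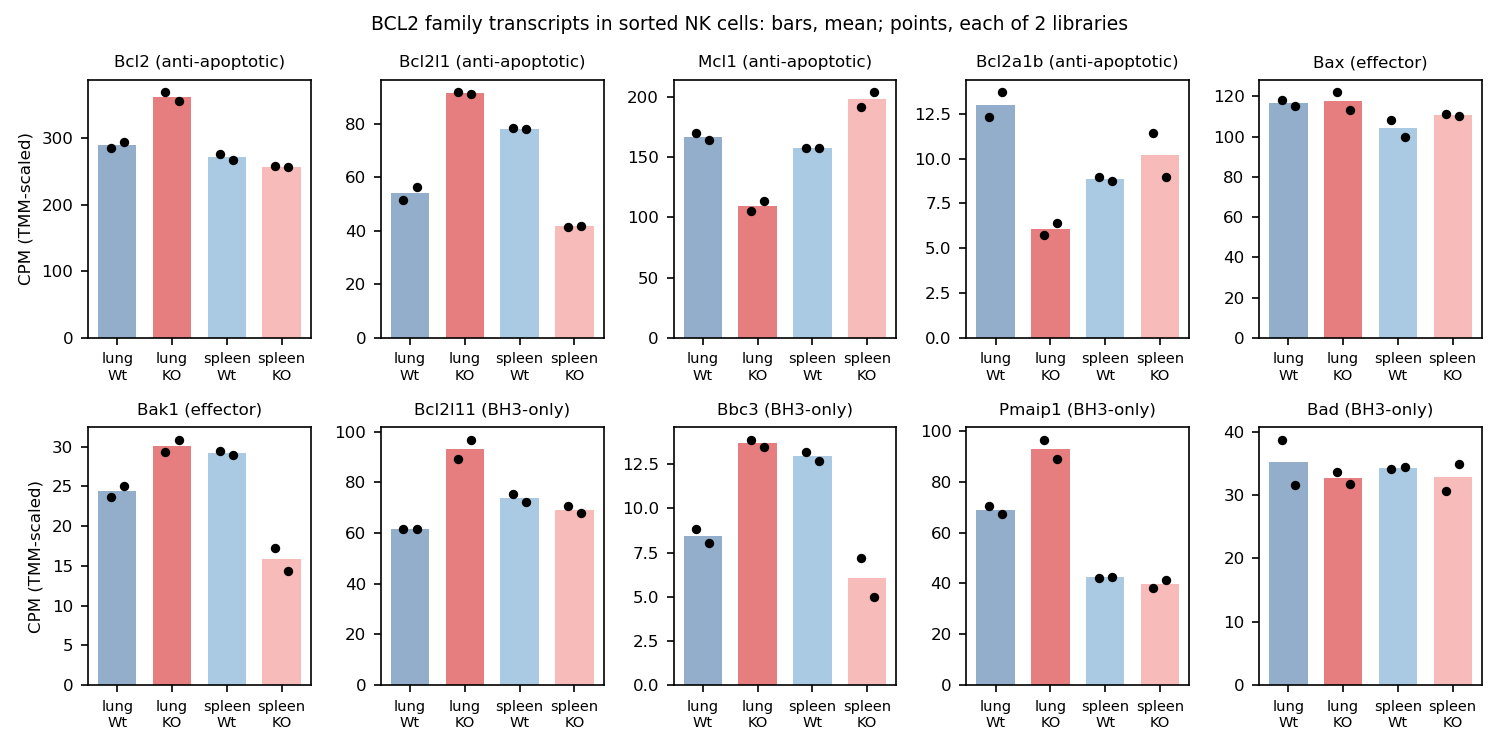
Level of each BCL2 family transcript in CPM on TMM-scaled library sizes (y axis, from 0, on a scale of its own in each panel) in the 4 groups of NK cells; bars are the mean of 2 libraries and points the libraries. *Bcl2l1* and *Bbc3* were highest in lung KO and lowest in spleen KO, *Bak1* was lowest in spleen KO with overlap between lung KO and spleen *Wt*, and *Mcl1* was lowest in lung KO (105 and 114 CPM) and highest in spleen KO (192 and 204 CPM).

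Among the anti-apoptotic members, *Bcl2l1* shifted in opposite directions in the 2 organs. *Bcl2l1* (chromosome 2 of GRCm38, 152780668 to 152831728, minus strand) encodes BCL-XL, which binds both effectors and BH3-only proteins. It was counted at 51.3 and 56.5 CPM in lung *Wt*, 91.7 and 91 CPM in lung KO, 78.2 and 77.8 CPM in spleen *Wt*, and 41.5 and 41.9 CPM in spleen KO. The 4 groups did not overlap, with both lung KO libraries at the top and both spleen KO libraries at the bottom. The log2 fold change in KO was 0.78 (standard error 0.07, adjusted p = 3.3e-11) in lung and -0.9 (standard error 0.07, adjusted p = 2.6e-13) in spleen, 1.72-fold and 0.537-fold. The difference of 1.68 between these effects had an adjusted p of 8.3e-17. Under the GC offset the *Bcl2l1* effects were 0.54 in lung and -0.73 in spleen, and under the assumed coefficient of variation of 0.2 the lung call was lost (adjusted p = 0.0749).

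*Mcl1* (chromosome 3, 95658788 to 95663176, plus strand) encodes a short-lived protein that holds BAK1 and binds NOXA and BIM. It had 170 and 164 CPM in lung *Wt*, 105 and 114 CPM in lung KO, 158 in both spleen *Wt* libraries, and 192 and 204 CPM in spleen KO. Every lung KO library was below and every spleen KO library above all others. For *Mcl1*, the KO effect on the log2 scale came to -0.61 (standard error 0.06, adjusted p = 4.8e-11) in lung and 0.35 (standard error 0.05, adjusted p = 3.8e-07) in spleen, and the difference was -0.96 (adjusted p = 2.8e-13). *Mcl1* was thus lower in lung KO and higher in spleen KO, and its values under the GC offset were -0.74 and 0.42. Both calls were lost under the assumed coefficient of variation of 0.2 (adjusted p = 0.172 and 0.581), and that in spleen also under 0.1 (adjusted p = 0.0797).

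*Bcl2* (chromosome 1, 106538178 to 106714274, minus strand) had 285 and 294 CPM in lung *Wt* and 369 and 356 CPM in lung KO. In spleen, its values were 276 and 267 CPM in *Wt* and 258 and 256 CPM in KO. Both lung KO libraries were above all others, while the remaining 6 libraries lay between 256 and 294 CPM. On the log2 scale *Bcl2* changed by 0.33 (standard error 0.04, adjusted p = 8.8e-08) in lung and -0.08 (standard error 0.04, adjusted p = 0.121) in spleen, with a difference of 0.41 (adjusted p = 6.6e-07). In spleen, library totals gave *Bcl2* -0.15 (adjusted p = 0.0051) and the GC offset -0.13 (adjusted p = 0.00977), both past the threshold. In lung its call was lost under assumed coefficients of variation of 0.1 (adjusted p = 0.0736) and 0.2 (adjusted p = 0.551). Antisense transcript *D630008O14Rik* covers 6.09% of the exon bases of *Bcl2*, and the strand setting of the counting is not stated.

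*Bcl2a1b* (chromosome 9, 89199209 to 89207827, plus strand) is a copy of the gene for A1, a family member induced by NF-κB. It was counted at 12.3 and 13.7 CPM in lung *Wt* and at 5.73 and 6.39 CPM in lung KO. Spleen *Wt* had 8.99 and 8.76 CPM and spleen KO 11.4 and 8.96 CPM. The lung groups were apart, and the spleen groups overlapped. In lung KO the level was 47.9% of that in *Wt* (log2 fold change -1.06, standard error 0.2, adjusted p = 2.0e-05). In spleen it changed by 0.07 log2 units (standard error 0.17, adjusted p = 0.772), and the difference between the effects was -1.14 (adjusted p = 2.6e-04). In lung, *Bcl2a1b* was called under every setting tried.

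Counts of *Bcl2a1b* are uncertain, because A1 has near-identical copies in the mouse. Of the 50-base words in the transcript of *Bcl2a1b*, 57.6% also occur in another copy, and the figure is 79.5% for *Bcl2a1d*, 69% for *Bcl2a1a* and 10.4% for *Bcl2a1c*. A further gene model on the same strand, *Gm29094*, shares 49.08% of the exon bases of *Bcl2a1b*. *Bcl2a1d* had 7.71 and 6.48 CPM in lung *Wt*, 4.5 and 5.44 CPM in lung KO, 2.75 and 1.87 CPM in spleen *Wt*, and 3.59 and 2.95 CPM in spleen KO, with log2 fold changes of -0.52 (adjusted p = 0.0645) in lung and 0.49 (adjusted p = 0.178) in spleen. The difference of these effects was called (-1.01, adjusted p = 0.0244) and had the sign of that of *Bcl2a1b*. With at least 10 counts required in every library, *Bcl2a1d* just passed in lung (-0.52, adjusted p = 0.0499), and without spleen *Wt* replicate 2 its spleen value was 0.14. *Bcl2a1a* and *Bcl2a1c* had between 0 and 2 reads in each library and were not tested.

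Of the 2 effectors, *Bak1* moved and *Bax* did not pass the test in either KO comparison. *Bak1* (chromosome 17, 27019810 to 27029009, minus strand) had 23.7 and 25.1 CPM in lung *Wt*, 29.3 and 30.9 CPM in lung KO, 29.5 and 29 CPM in spleen *Wt*, and 17.3 and 14.3 CPM in spleen KO. Both spleen KO libraries were below all others, and lung KO overlapped with spleen *Wt*. In spleen KO, *Bak1* was at 50.5% of *Wt* (log2 fold change -0.99, standard error 0.11, adjusted p = 1.1e-09). In lung *Bak1* changed by 0.32 log2 units (standard error 0.11, adjusted p = 0.0173), and the difference was 1.3 (adjusted p = 4.4e-09). The lung call of *Bak1* was weak: it was lost without lung *Wt* replicate 1 (0.26, adjusted p = 0.206), without lung KO replicate 2 (0.27, adjusted p = 0.143), with DESeq2 (adjusted p = 0.221) and under assumed coefficients of variation of 0.1 (adjusted p = 0.189) and 0.2 (adjusted p = 0.615), and the GC offset gave -0.04 (adjusted p = 0.801). In spleen *Bak1* stayed past the threshold under every setting, at -0.7 under the GC offset, which moved the difference to 0.66. *Ggnbp1* on the opposite strand shares 25.51% of the exon bases of *Bak1*.

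*Bax* (chromosome 7, 45461697 to 45466898, minus strand) had between 100 and 122 CPM in the 8 libraries. The lung *Wt* values of 118 and 115 CPM lay within the lung KO values of 122 and 113 CPM, and spleen *Wt* (108 and 100 CPM) was below spleen KO (111 and 110 CPM). On the log2 scale *Bax* changed by 0 (standard error 0.06, adjusted p = 0.995) in lung and 0.1 (standard error 0.06, adjusted p = 0.163) in spleen, and the difference was -0.1 (adjusted p = 0.334). *Bax* is GC-rich (59%), and under the GC offset it passed the threshold in both organs, at -0.41 (adjusted p = 4.5e-07) in lung and 0.43 (adjusted p = 5.0e-08) in spleen, with a difference of -0.84 (adjusted p = 2.7e-11). *Gm45808* on the same strand shares 12.18% of its exon bases.

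Among the BH3-only genes, *Bbc3* was higher in lung KO and lower in spleen KO. *Bbc3* (chromosome 7, 16308393 to 16318205, plus strand) encodes PUMA, a target of p53 and of FOXO3. It had 8.83 and 8.03 CPM in lung *Wt*, 13.9 and 13.5 CPM in lung KO, 13.2 and 12.7 CPM in spleen *Wt*, and 7.18 and 4.98 CPM in spleen KO. Its groups did not overlap, and the order was that of *Bcl2l1*: lung KO, spleen *Wt*, lung *Wt*, spleen KO. In log2 units KO differed from *Wt* by 0.67 (standard error 0.18, adjusted p = 0.00189) in lung and -1.29 (standard error 0.17, adjusted p = 5.1e-08) in spleen, and the difference was 1.97 (adjusted p = 1.2e-08). *Bbc3* has the highest GC content of the members (67.1%). Under the GC offset, its values were 0.05 (adjusted p = 0.843) in lung and -0.88 in spleen, with a difference of 0.93 that was still called. Without spleen KO replicate 2 the spleen value was -0.84 (adjusted p = 0.0208). The lung call was also lost with DESeq2 (adjusted p = 0.063) and under the assumed coefficient of variation of 0.2 (adjusted p = 0.192). Its counts were low, between 22 and 130 reads a library.

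*Bcl2l11* (chromosome 2, 128126038 to 128162547, plus strand) encodes BIM, the BH3-only protein that rises when lymphocytes lose cytokine support. It had 61.4 and 61.7 CPM in lung *Wt* and 89.4 and 96.9 CPM in lung KO, and in spleen 75.4 and 72.1 CPM in *Wt* and 70.5 and 67.9 CPM in KO. Both lung KO libraries were above all others, and no pair of groups overlapped. *Bcl2l11* thus changed on the log2 scale by 0.61 (standard error 0.07, adjusted p = 6.0e-09) in lung and -0.1 (standard error 0.07, adjusted p = 0.2) in spleen, and the difference was 0.71 (adjusted p = 9.3e-08). Library totals moved *Bcl2l11* in spleen to -0.17 (adjusted p = 0.0317). In lung its call was lost under the assumed coefficient of variation of 0.2 (adjusted p = 0.191).

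*Pmaip1* (chromosome 18, 66458533 to 66465565, plus strand) encodes NOXA, which binds MCL1 and A1. It had 70.4 and 67.1 CPM in lung *Wt*, 96.6 and 89 CPM in lung KO, 42.2 and 42.5 CPM in spleen *Wt*, and 38.2 and 41.4 CPM in spleen KO. Every lung library was above every spleen library. KO differed from *Wt* in log2 units by 0.41 (standard error 0.07, adjusted p = 7.2e-06) in lung and -0.05 (standard error 0.08, adjusted p = 0.604) in spleen, with a difference of 0.47 (adjusted p = 3.5e-04). Under the GC offset *Pmaip1* had 0.54 in lung, -0.21 in spleen (adjusted p = 0.0268) and a difference of 0.74, and under the assumed coefficient of variation of 0.2 its lung call was lost (adjusted p = 0.4).

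*Bad* (chromosome 19, 6941861 to 6951899, plus strand), whose protein is silenced by survival kinases, had between 30.7 and 38.8 CPM, and *Wt* and KO libraries overlapped in both organs. On the log2 scale *Bad* changed by -0.16 (standard error 0.11, adjusted p = 0.218) in lung and -0.01 (standard error 0.09, adjusted p = 0.979) in spleen, and the difference was -0.15 (adjusted p = 0.366). Under the GC offset *Bad*, too, passed the threshold, at -0.56 (adjusted p = 2.6e-05) in lung and 0.31 (adjusted p = 0.00383) in spleen, with a difference of -0.87 (adjusted p = 1.1e-06). *Gpr137* on the opposite strand shares 20.48% of its exon bases.

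**Figure D2:**
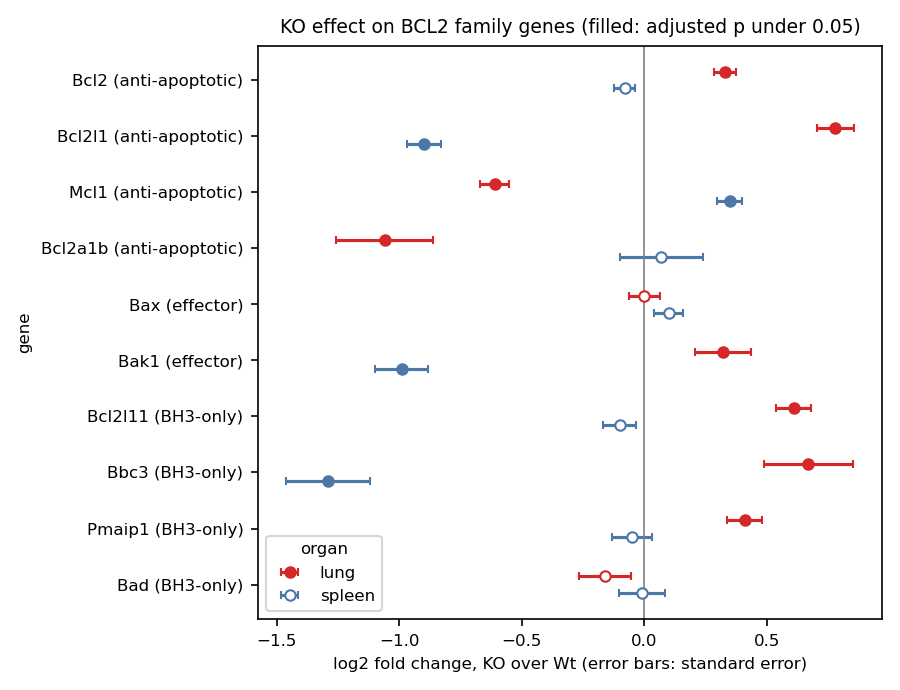
Log2 fold change of KO over *Wt* (x axis) for each BCL2 family gene (y axis) in lung (red) and spleen (blue); error bars are standard errors and filled points have an adjusted p under 0.05 in edgeR's quasi-likelihood test. *Bcl2l1*, *Bak1* and *Bbc3* lie to the right of 0 in lung and to the left in spleen, *Mcl1* the other way round, and the lung points of *Bak1* (to -0.04) and *Bbc3* (to 0.05) lose their call under the GC offset.

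The levels of different members were compared per kb of exon, since longer transcripts give more reads. This length includes exon bases shared with other genes, where reads can be left out of the counts. Such bases make up 49.08% for *Bcl2a1b*, 25.51% for *Bak1*, 20.48% for *Bad*, 12.18% for *Bax* and 6.09% for *Bcl2*. These members may be understated, above all *Bcl2a1b*, which also shares sequence with its copies. In lung *Wt* the order of mean levels was *Bax* (73.8 CPM per kb), *Mcl1* (48.9), *Bcl2* (31.6), *Pmaip1* (25.2), *Bcl2a1b* (15.9), *Bad* (13.8), *Bcl2l1* (11.8), *Bak1* (10.2), *Bcl2l11* (7.66) and *Bbc3* (3.97). Only *Bcl2a1b* and *Bad* overlapped among neighbours in this order. In lung KO, *Mcl1* (32 CPM per kb) stood behind *Bax* (74.4), *Bcl2* (39.6) and *Pmaip1* (34), with overlap between *Mcl1* and *Pmaip1* and between *Bad* (12.8) and *Bak1* (12.5). *Bcl2l1* (19.9 CPM per kb) followed *Mcl1* there, and *Bcl2l11* (11.6), *Bcl2a1b* (7.42) and *Bbc3* (6.45) came last.

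In spleen *Wt*, the mean level per kb fell from *Bax* (66.1 CPM per kb) over *Mcl1* (46.2), *Bcl2* (29.7), *Bcl2l1* (17), *Pmaip1* (15.5), *Bad* (13.4), *Bak1* (12.1), *Bcl2a1b* (10.9) and *Bcl2l11* (9.19) to *Bbc3* (6.11), and no neighbours overlapped. In spleen KO, *Bax* (70.1 CPM per kb), *Mcl1* (57.9) and *Bcl2* (28) led, followed by *Pmaip1* (14.6), *Bad* (12.8), *Bcl2a1b* (12.5), *Bcl2l1* (9.09), *Bcl2l11* (8.62), *Bak1* (6.57) and *Bbc3* (2.86), where only *Bad* and *Bcl2a1b* overlapped among neighbours. *Bax* was thus the most abundant member per length, and *Bbc3* the least, in all 4 groups. The balance between anti-apoptotic transcripts moved with the group. The level of *Bcl2l1* per kb divided by that of *Mcl1* rose in lung from 0.226 and 0.256 (*Wt*) to 0.653 and 0.596 (KO), while in spleen it fell from 0.368 in both *Wt* libraries to 0.161 and 0.153 (KO). For the effectors, *Bax* over *Bak1* per kb went in lung from 7.58 and 6.98 (*Wt*) to 6.35 and 5.58 (KO), and in spleen from 5.62 and 5.27 (*Wt*) to 9.8 and 11.7 (KO). Both ratios are descriptions without a test.

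Lung and spleen NK cells also differed within a genotype. In *Wt*, 3 members were higher in lung (*Pmaip1*, *Bcl2a1b* and *Bax*) and 4 lower (*Bcl2l1*, *Bcl2l11*, *Bak1* and *Bbc3*), where 57% of all genes were called, 27.7% as higher and 29.3% as lower in lung. *Pmaip1* had a log2 fold change of 0.71 (lung over spleen, adjusted p = 4.2e-09), *Bcl2l1* -0.55 (adjusted p = 1.1e-07) and *Bbc3* -0.59 (adjusted p = 0.0059). The values were 0.53 for *Bcl2a1b*, 0.18 for *Bax*, -0.25 for *Bcl2l11* and -0.27 for *Bak1*, with adjusted p between 0.00455 (*Bcl2l11*) and 0.0455 (*Bak1*). *Bcl2* (0.09), *Mcl1* (0.09) and *Bad* (0.08) were not called.

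The organ calls in *Wt* were the least stable. No member (0 of 10) was called under the assumed coefficient of variation of 0.2, where 16% of all genes were. DESeq2 called 2 members and 4790 genes, where edgeR called 7185 genes. It did not call *Bcl2a1b* (adjusted p = 0.131), *Bcl2l11* (0.0878), *Bax* (0.112), *Bak1* (0.326) and *Bbc3* (0.109). Without lung *Wt* replicate 1, which leaves 1 library in that group, *Bcl2l11* (-0.23), *Bax* (0.17) and *Bak1* (-0.2) lost their calls. Without spleen *Wt* replicate 2, *Bcl2a1b* (0.51), *Bax* (0.11) and *Bak1* (-0.28) did. *Bak1* was also lost without lung *Wt* replicate 2 (adjusted p = 0.0648) and without spleen *Wt* replicate 1 (adjusted p = 0.0869). Under the GC offset *Bbc3* (-0.25) and *Bak1* (-0.05) lost their calls, *Bad* (0.32) and *Mcl1* (0.18) gained 1 each, and *Bax* moved to 0.43. Scaling by library totals moved the median of all genes to -0.116 and the share of higher genes among those called from 48.6% to 36.9%, and *Bax* (0.07, adjusted p = 0.344) was then not called. With RLE scaling *Bcl2* was called (0.11, adjusted p = 0.0421) and *Bak1* was not (adjusted p = 0.0621), and *Bak1* was also lost without a filter (adjusted p = 0.065) and in a fit of only the 4 *Wt* libraries (adjusted p = 0.0537).

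In KO, 6 members were higher in lung than in spleen and 2 lower, where 65.6% of all genes were called, 33.9% as higher and 31.7% as lower. The log2 fold changes (lung over spleen) were 1.37 for *Bbc3*, 1.17 for *Pmaip1*, 1.12 for *Bcl2l1*, 1.04 for *Bak1*, 0.5 for *Bcl2* and 0.45 for *Bcl2l11*, and -0.87 for *Mcl1* and -0.6 for *Bcl2a1b*. Their adjusted p lay between 2.8e-17 (*Pmaip1*) and 0.00474 (*Bcl2a1b*). Under the assumed coefficient of variation of 0.2, 5 of them were still called (*Bbc3*, *Pmaip1*, *Bcl2l1*, *Bak1* and *Mcl1*), with 18.4% of all genes. The GC offset moved *Bbc3* to 0.69 and *Bak1* to 0.61, and *Bax*, at 0.08 and not called, to -0.42 (adjusted p = 3.4e-08), while *Bad*, at -0.07 and not called, moved to -0.55 (adjusted p = 2.2e-06). *Bcl2a1b* was not called with DESeq2 (adjusted p = 0.0642), and *Bax* was with library totals (0.14, adjusted p = 0.0397). Each of the 4 groups enters 2 of these comparisons, so they are not independent of each other.

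Lists of genes around the family give the wider pathway, and no list was tested as a set. Their counts stand beside 29.2% of all genes higher and 26.4% lower in lung KO, and 28.2% higher and 28.9% lower in spleen KO. In the list of IL-15 and STAT5 signalling, upstream of *Bcl2* and *Mcl1*, 10 of 16 genes were higher and 3 lower (*Il2rg*, *Stat5b* and *Socs2*) in lung KO (median 0.42), and 1 was higher and 11 lower in spleen KO (median -0.42). The feedback inhibitor *Socs1*, a STAT5 target, had 5.22 and 7.25 CPM in lung *Wt*, 25 and 27.2 CPM in lung KO, 32 and 27.8 CPM in spleen *Wt*, and 6.2 and 8.35 CPM in spleen KO. Its log2 fold change was 2.15 in lung (adjusted p = 4.1e-13) and -1.85 in spleen (adjusted p = 1.4e-14). *Il2rb*, the receptor chain shared by IL-2 and IL-15, had 327 and 345 CPM in lung *Wt*, 759 and 786 CPM in lung KO, 676 in both spleen *Wt* libraries, and 442 and 444 CPM in spleen KO, with log2 fold changes of 1.21 and -0.61. The common γ chain *Il2rg* went the other way, at -0.43 in lung and 0.37 in spleen. The STAT5 target *Cish* had 1.24 and -0.7, and *Jak3* 0.96 and -0.5. For *Akt2* the values were 0.6 and -0.81, for *Akt1* 0.63 and -0.58, and for *Stat5a* 0.56 and -0.54. Under the GC offset, 7 genes of this list were higher and 5 lower in lung (median 0.2), and 1 was higher and 10 lower in spleen (median -0.21).

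In the list of FOXO and MAPK control of BIM, PUMA and BAD, 6 of 14 genes were higher and 3 lower in lung KO (median 0.22), and 6 were higher and 4 lower in spleen KO (median 0.06), where 55.6% and 57.1% of all genes were called. The GC offset moved these medians to 0 and 0.19. *Pim2*, a STAT5-induced kinase that phosphorylates BAD, had log2 fold changes of 1.51 in lung and -0.57 in spleen. *Rps6ka1* had 0.82 and -0.56, against -0.54 and 0.36 for *Rps6ka3* and -0.46 and 0.12 for *Ywhaz*. *Mapk8*, the gene for JNK1 (0.61 and 0.8), and *Dynll1*, whose product binds BIM (0.3 and 0.38), were higher in KO in both organs. The FOXO factor *Foxo3*, added to the named genes after its values were seen, did not pass the test in lung (0.27, adjusted p = 0.0678) or in spleen (0.18, adjusted p = 0.117).

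Downstream of BAX and BAK1, 8 of 17 genes of the apoptosome, caspase and inhibitor list were higher and 5 lower in lung KO (median 0.14), and 5 were higher and 5 lower in spleen KO (median -0.05), beside 55.6% and 57.1% of all genes called. Its lung median turned to -0.04 under the GC offset, with 6 higher and 5 lower. *Cycs*, which encodes cytochrome *c*, was lower in lung KO (-0.58) and higher in spleen KO (0.5), and *Apaf1*, the scaffold it binds, was higher in lung KO (0.58) and lower in spleen KO (-0.43). *Casp6* had -0.44 and 0.48, and the channel genes *Vdac2* and *Vdac3* had -0.31 and 0.28, and -0.39 and 0.18. *Vdac1* (0.35 and -0.4) and *Htra2* (0.24 and -0.39) had the opposite signs. *Birc5*, the gene for survivin, which is also part of the mitotic machinery, was higher in KO in both organs, at 1.62 in lung and 0.5 in spleen. It had 2.98 and 3.89 CPM in lung *Wt*, 10.2 and 10.1 CPM in lung KO, 19.5 and 22.2 CPM in spleen *Wt*, and 27.1 and 30.7 CPM in spleen KO.

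Of 16 other BCL2 family genes, 8 were tested, 2 of them higher and 2 lower in lung KO (median -0.09) and 3 higher and 1 lower in spleen KO (median 0.16). The 4 of 8 called in each organ are near the 55.6% and 57.1% of all genes, and the GC offset moved the medians to -0.35 and 0.28. *Bcl2l13* had log2 fold changes of 1.04 in lung and -0.6 in spleen, and the mitophagy receptor *Bnip3l* -0.66 and 0.38. The BH3-only gene *Bmf* had no read in either lung *Wt* library and 17 and 16 reads in lung KO. Against the floor of 3 reads per library, *Bmf* was at least 4.92-fold higher in lung KO, and with *Bmf* at this bound the median of the list was the same, -0.09. In spleen *Bmf* had 8 and 14 reads in *Wt* and 9 and 103 in KO (log2 fold change 1.11, adjusted p = 0.00324).

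For p53 and its targets, 12 of 14 genes were tested, with 5 higher and 1 lower in lung KO (median 0.15) and 3 higher and 3 lower in spleen KO (median -0.03). That is 6 of 12 in each organ, near the 55.6% and 57.1% of all genes, and the lung median was 0 under the GC offset. *Sesn2* had 0.71 and -1.91 and *Trp53inp1* -0.32 and 0.45. *Gtse1*, which is named because it had no read in lung *Wt*, was at least 3.08-fold higher in lung KO against the same floor, and the list's median was 0.15 also at this bound. *Trp53* itself, added after its values were seen, had 0.09 (adjusted p = 0.285) in lung and 0.23 (adjusted p = 0.00198) in spleen. Of 6 genes that act on the turnover of MCL1 protein, 5 were tested, 1 was higher and 2 lower in lung KO (median -0.17), and 1 was higher and 1 lower in spleen KO (median -0.05), beside 55.6% and 57.1% of all genes. The lung median turned to 0.01 under the GC offset. *Fbxw7*, which encodes a ubiquitin ligase subunit that marks MCL1 for degradation, had -0.41 in lung and 0.66 in spleen, the same signs as *Mcl1*.

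Some of these calls were weak. When the coefficient of variation was set to 0.2, the genes called fell to 5 in lung and 1 in spleen for the IL-15 list, 2 and 0 for the FOXO and MAPK list, 1 and 0 for the apoptosome list, 2 and 0 for the other BCL2 family genes, 1 and 1 for p53 and its targets, and 0 and 0 for MCL1 turnover, beside 12.4% and 9.08% of all genes. The lung call in the p53 list was neither *Sesn2* (adjusted p = 0.339) nor *Trp53inp1* (0.559). Leaving aside *Foxo3*, *Trp53* and *Gtse1*, the named genes then called in lung were *Bmf*, *Bcl2l13*, *Birc5*, *Socs1*, *Cish*, *Il2rb*, *Jak3*, *Pim2* and *Rps6ka1*. In spleen they were *Socs1* and *Sesn2*. *Cycs*, *Apaf1*, *Casp6*, *Vdac2* and *Fbxw7* thus lost both calls.

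Other settings ended fewer calls. In lung, the GC offset ended those of *Htra2* (-0.11), *Jak3* (0.49), *Akt1* (0.21), *Stat5a* (0.23), *Sesn2* (0.31) and *Trp53inp1* (-0.1), and in spleen those of *Htra2* (-0.11), *Vdac3* (0.02), *Jak3* (-0.13) and *Akt1* (-0.24). Others were still called under this offset with smaller values, in lung *Akt2* (0.32) and *Rps6ka1* (0.49), and in spleen *Stat5a* (-0.29), *Pim2* (-0.27), *Rps6ka1* (-0.3), *Rps6ka3* (0.23) and *Trp53inp1* (0.24). DESeq2 did not call *Vdac1* (adjusted p = 0.0767), *Htra2* (0.176) and *Sesn2* (0.35) in lung, or *Bmf* (0.24), *Birc5* (0.0756), *Vdac1* (0.074), *Vdac3* (0.0747), *Cish* (0.141) and *Jak3* (0.508) in spleen. With RLE scaling *Sesn2* was not called in lung (adjusted p = 0.0508).

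Scaling and single libraries mattered as well for the genes of the lists. *Vdac3* (adjusted p = 0.092) and *Ywhaz* (adjusted p = 0.204) were not called in spleen with library totals. Without lung *Wt* replicate 1, the adjusted p in lung was 0.0877 for *Vdac1*, 0.172 for *Htra2* and 0.334 for *Sesn2*, and *Stat5a* rose to 0.85. Without lung KO replicate 2, it was 0.114 for *Vdac1*, 0.0935 for *Htra2*, 0.0511 for *Cish* and 0.628 for *Sesn2* (log2 fold change 0.28). *Sesn2* in lung was also lost without lung *Wt* replicate 2 (adjusted p = 0.0596), spleen *Wt* replicate 1 (0.0507) or spleen *Wt* replicate 2 (0.0532). Without spleen *Wt* replicate 2, the adjusted p in spleen was 0.139 for *Bmf*, 0.0718 for *Cish*, 0.198 for *Jak3* and 0.0848 for *Akt1* (log2 fold change -0.36), and *Mapk8* moved to 0.49.

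The calls in spleen depended most on spleen KO replicate 2, the deepest library. Without it, 4448 genes were called in spleen in place of 7195, while all 4 called members were still called. The adjusted p in spleen was then 0.394 for *Bmf*, 0.145 for *Birc5*, 0.051 for *Apaf1*, 0.453 for *Vdac1* (log2 fold change -0.13), 0.822 for *Jak3* (log2 fold change 0.1), 0.0858 for *Akt1* and 0.102 for *Ywhaz*, while *Cish* moved to -1.05 and *Sesn2* to -2.88.

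Genes with the most similar pattern over the 8 libraries were taken from those with a mean log2 CPM above 5 (5102 compared), by Pearson's r of log2 CPM. Since the 8 libraries form 4 groups, r here mostly describes the group means. For *Bcl2* these were *Dusp5* (r = 0.997), *Vps37b* (0.993) and *Stip1* (0.99). The MAPK phosphatase gene *Dusp5* had 67.1 and 77.5 CPM in lung *Wt*, 130 and 122 CPM in lung KO, 60.9 and 60.1 CPM in spleen *Wt*, and 50.6 and 51.9 CPM in spleen KO. For *Mcl1* they were *Psmd10* (0.988), *Exoc8* (0.988) and *Snrnp25* (0.987), and for *Bcl2l11* *Gabpa* (0.988), *Abcf2* (0.979) and *Mrpl4* (0.978). *Psmd10*, a proteasome assembly factor, had 187 and 176 CPM in lung *Wt*, 119 and 120 CPM in lung KO, 172 and 160 CPM in spleen *Wt*, and 206 and 208 CPM in spleen KO.

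Promoter windows from RefSeq on GRCm38.p6 (250 bases before to 50 bases after an annotated start) were found for 9 members, all except *Pmaip1*, in 15 windows. They were searched on both strands for the letters TTCNNNGAA (STAT5), GTAAACA (FOXO), TGANTCA (AP-1) and TGTGGT (RUNX), which occur in 8.3%, 3.65%, 7.81% and 16.8% of all 32851 windows of 300 bases. *Bcl2l11* and *Bbc3* each had the FOXO letters in 1 window, *Bcl2a1b* the AP-1 letters and *Bak1* the RUNX letters. In the *Bak1* window, all 250 bases before the start lie in annotated exons, the RUNX match included. So do 64 of these bases for *Bcl2a1b*, all 250 in windows 1 and 2 of *Bcl2l1*, and 230 in window 2 of *Bad*. No match overlapped another. In the other 11 windows, those of *Bcl2*, *Bcl2l1*, *Mcl1*, *Bax* and *Bad* among them, none of the 4 motifs occurred. A match is a description of the sequence, and binding was not analysed here.

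The 250 bases before a start are shown, 5′ to 3′ along the gene, for *Bcl2l11* and *Bbc3*, the BH3-only genes higher in lung KO that carry the FOXO letters (in capitals), and for *Bcl2l1* and *Mcl1*, whose KO effects had opposite signs in each organ. None of these bases lies in an annotated exon. That of *Bcl2l11* is chr2:128125788-128126037 (plus strand), with the match 227 bases before the start, and that of *Bbc3* is chr7:16310011-16310260 (plus strand, the second of 3 annotated starts), with the match on the opposite strand 167 bases before the start. That of *Bcl2l1* is chr2:152831729-152831978 (minus strand, the most upstream of 3 starts), and that of *Mcl1* is chr3:95658471-95658720 (plus strand). Their GC contents were 72% for *Bcl2l11*, 72.4% for *Bbc3*, 47.6% for *Bcl2l1* and 64.4% for *Mcl1*.
Bcl2l11: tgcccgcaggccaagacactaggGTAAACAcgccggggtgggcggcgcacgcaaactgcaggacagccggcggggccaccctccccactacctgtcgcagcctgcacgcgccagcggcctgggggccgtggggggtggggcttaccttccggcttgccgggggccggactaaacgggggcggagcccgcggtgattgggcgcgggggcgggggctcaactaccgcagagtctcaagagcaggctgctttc
Bbc3: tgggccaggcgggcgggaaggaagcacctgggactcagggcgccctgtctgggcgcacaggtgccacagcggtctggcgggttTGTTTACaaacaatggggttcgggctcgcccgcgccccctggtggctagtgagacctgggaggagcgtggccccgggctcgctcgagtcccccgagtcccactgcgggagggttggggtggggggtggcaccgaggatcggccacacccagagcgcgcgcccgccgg
Bcl2l1: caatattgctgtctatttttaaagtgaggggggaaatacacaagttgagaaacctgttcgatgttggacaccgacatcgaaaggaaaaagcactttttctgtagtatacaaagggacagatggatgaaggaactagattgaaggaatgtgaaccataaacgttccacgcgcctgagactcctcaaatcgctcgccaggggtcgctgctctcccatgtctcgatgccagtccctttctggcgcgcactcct
Mcl1: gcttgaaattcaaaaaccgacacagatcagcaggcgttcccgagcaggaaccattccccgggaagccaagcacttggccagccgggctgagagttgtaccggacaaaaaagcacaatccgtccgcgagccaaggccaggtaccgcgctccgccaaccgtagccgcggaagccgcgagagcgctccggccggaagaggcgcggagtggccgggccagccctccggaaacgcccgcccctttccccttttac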

How the data were processed

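RNA from sorted NK cells was sequenced in 8 libraries (reads of 50 bp). The authors aligned the reads to mm10 (GRCm38) with HISAT2 2.1.0, counted them on genes with HTSeq (0.11.1 in the submitters' processing notes), and deposited raw counts for each gene symbol. Reads on no gene (52.7% to 55% of uniquely aligned reads) or on several (0.686% to 0.768%) were left out. The strand setting is not given in the sources used here.

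Groups came from the sample titles. The tests ran in edgeR 4.0.16 under R 4.3.3 (filterByExpr over the 4 groups, TMM, 1 mean per group over all 8 libraries, quasi-likelihood test, Benjamini-Hochberg adjustment over all 12595 genes, FDR 0.05), and the steps were tested on simulated counts. Standard errors were derived from the F statistic. Positions, exon lengths and GC content came from GENCODE M21, where 46394 symbols were found by name and 597 through a former name; 1330 were not found. It gave GC content for 99.3% of tested genes. Promoters are from RefSeq.

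The members and lists were chosen with earlier results of these data known. Named genes are the members, *Ccl5*, the *Bcl2a1* copies, up to 8 genes a list called in both organs, ranked by the sum of absolute log2 fold changes, and the 3 genes most similar to *Bcl2*, *Mcl1* and *Bcl2l11*; *Foxo3*, *Trp53* and *Gtse1* were added outside this rule after their values were seen. Alternatives were DESeq2 1.42.0, a likelihood ratio test, assumed coefficients of variation of 0.1 and 0.2, scaling by RLE, upper quartile or library totals, dropping the filter or requiring 10 counts everywhere, the replicate block, only the 4 libraries compared, the GC offset (spline with 5 degrees of freedom) with and without the block, leaving out each library, and an FDR of 0.001.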

Additional observations from a re-analysis of the deposited data

Results flagged for a closer look

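For 8 of the 10 members, the KO effect in lung differed from that in spleen by a test of the difference itself (edgeR's quasi-likelihood test, adjusted over all genes). The difference, lung minus spleen on the log2 scale, was 1.97 for *Bbc3*, 1.68 for *Bcl2l1*, 1.3 for *Bak1*, 0.71 for *Bcl2l11*, 0.47 for *Pmaip1* and 0.41 for *Bcl2*, and it was -0.96 for *Mcl1* and -1.14 for *Bcl2a1b*. Such a difference was called for 61.6% of all genes tested. Every one of the 8 was still called under the GC offset, at 0.93 for *Bbc3*, 1.27 for *Bcl2l1*, 0.66 for *Bak1*, 0.65 for *Bcl2l11*, 0.74 for *Pmaip1*, 0.48 for *Bcl2*, -1.16 for *Mcl1* and -0.99 for *Bcl2a1b*. The same offset called 7434 of the 12595 genes tested and all 10 members, *Bax* (-0.84) and *Bad* (-0.87) included. Under an assumed coefficient of variation of 0.2, 3 of the 8 were called, *Bcl2l1*, *Bak1* and *Bbc3*, with 16% of all genes.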

How the results depend on the processing

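For the members, 542 of the alternative values kept both direction and side of the threshold, 51 lost the call, 24 gained it and 23 changed sign; with a library left out, 377 kept both, 10 lost the call and 13 changed sign. For *Ccl5* and the 29 named genes of the lists, 1139 kept both, 112 lost the call and 3 changed sign. A value that changed sign entered these counts only as a sign change, also where its call was lost or gained. The stated numbers of lost and gained calls leave such values out. Where no cause is named, the cause was not tested.

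The number of genes called in lung was 4507 with DESeq2, 4395 and 1557 with assumed coefficients of variation of 0.1 and 0.2, and 4131 at an FDR of 0.001. In spleen these were 4165, 4112, 1144 and 4388, and with a library left out between 4448 and 7493. For the difference, 0.2 gave 2017 and the stricter FDR 5106. For lung against spleen in *Wt*, 0.1 gave 4673, 0.2 gave 2011 and the stricter FDR 4426, and in KO 0.2 gave 2316. The members called with 0.2 were 1 in lung, 3 for the difference, 0 between organs in *Wt* and 5 in KO. In spleen, 8 members were called under the GC offset, with or without the block. Between organs in *Wt*, DESeq2 called 2, a coefficient of 0.1 called 3 and the stricter FDR 2, and with a library left out between 4 and 7. A higher assumed spread and a stricter threshold call fewer genes by construction.

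Sign changes mostly concerned values near 0 that were not called. *Bax* in lung (0 in the report) was 0.01 with assumed coefficients of 0.1 and 0.2 and with the filter of 10 counts, 0.09 with library totals, 0 without a filter, and between -0.04 and 0.06 with a library left out. *Bad* in spleen (-0.01) was 0 with RLE, 0.01 with upper-quartile scaling and without a filter, 0.31 with the GC offset, and between -0.16 and 0.02 with a library left out. With a library left out, *Bad* lay between -0.26 and 0.03 in lung, -0.25 and 0.03 for the difference, -0.11 and 0.18 between organs in *Wt*, and -0.1 and 0.09 in KO. Library totals gave 0.06 for *Bax* and 0.01 for *Bad* in the difference, and in *Wt* -0.01 for *Bcl2*, -0.02 for *Mcl1* and -0.03 for *Bad* between organs. The GC offset gave -0.04 for *Bak1* and -0.11 for *Htra2* in lung, -0.02 for *Bcl2a1b* in spleen, and -0.42 for *Bax* between organs in KO. *Jak3* in spleen lay between -0.62 and 0.1 with a library left out.

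Replicate numbers are shared between groups, and the labels do not say whether equal numbers stand for a pair. Deviations of equally numbered libraries had correlations between -0.076 and 0.169 (5103 genes), the highest between spleen *Wt* and spleen KO. The variance within a group was only 1.2 (lung KO) to 1.42 (lung *Wt*) times that of counting. Such deviations are mostly counting noise, so low correlations cannot exclude pairing. With the replicate block, 6977 genes were called in lung (8 members), 7185 in spleen (4), 7764 for the difference (8), 7135 between organs in *Wt* (6, without *Bak1*, adjusted p = 0.0518) and 8200 in KO (8). With the block, *Bax* was 0.01 in lung and *Bad* 0 in spleen, and *Sesn2* was not called in lung (0.6, adjusted p = 0.102). The GC offset with the block gave -0.04 for *Bak1* and -0.11 for *Htra2* in lung, -0.01 for *Bcl2a1b* and 0.33 for *Bad* in spleen, and -0.44 for *Bax* between organs in KO. *Stat5a* in spleen, called under the offset alone, was not called with the block added (-0.27, adjusted p = 0.0544).

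*Bbc3* and *Bcl2a1b* had the fewest reads of the members, with lowest counts of 22 (spleen KO replicate 1) and 28 (lung KO replicate 1).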
